A study of Mus musculus with 24 samples.

Results

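Lungs of mice that had drunk a low dose of a mugwort extract and then received bacterial lipopolysaccharide (LPS) were compared with lungs of saline control mice. The comparison was between 9 of the 24 libraries of the study, placed in groups by their labels. Standard errors and p-values come from a fit over all 24 libraries, so they rest on a spread shared with the other groups. It was picked with the Cxcl2 levels of these lungs known, the low-dose group having more lungs with strong Cxcl2 than the higher doses. How Cxcl2 lay over the libraries is therefore given as a description and its p-value as no independent support. The same limit holds for genes that followed Cxcl2 over these lungs, among them other chemokines, cytokines such as Il1b and acute-phase genes such as Lcn2. The libraries compared were the 5 of the low-dose group, called AEAA_low here, and the 4 of the Control group. All mice were labelled as wild type C57BL/6 males at 7 weeks of age. The AEAA_low mice received an aqueous extract of Artemisia argyi (AEAA) at 0.5 mg/mL in the drinking water for 28 days, LPS at 5 mg/kg into the trachea on day 29, and were sampled 8 h later. By the protocol the Control mice received saline and no extract, although the characteristics of their samples list LPS at 5 mg/kg as well. The study also held a group given LPS without extract (n = 5), called LPS, and 2 groups given higher extract doses before LPS (n = 5 each). No group received the extract without LPS, so what follows from the extract and what follows from LPS cannot be told apart in this comparison. The hour of the day at which lungs were taken is not given in the sources used here.

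LPS is a component of the outer wall of gram-negative bacteria. In the lung it is sensed mainly through CD14 and Toll-like receptor 4 on macrophages and epithelial cells. MyD88-dependent signalling then releases the transcription factor NF-kB, which drives chemokines and cytokines that draw neutrophils and later monocytes from the blood, and a TRIF-dependent branch adds an interferon response. The airways are lined by secretory club cells, which make secretoglobins and much of the xenobiotic metabolism of the lung, and by ciliated cells. Lung cells also run a circadian clock, in which BMAL1 and CLOCK drive the PER, CRY and REV-ERB repressors and the output factors DBP, TEF and HLF.

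Checks of the libraries are given first. Values are TPM, a share of all transcripts corrected for gene length, divided by a scaling factor for each library, called scaled TPM, and every difference is on the scale of log2(scaled TPM + 1), which understates the change of weakly expressed genes. The factors lay between 0.652 and 0.814 in Control and between 0.949 and 1.08 in AEAA_low, and the TPM of Scgb1a1 made up 23.2 to 35.5% of a Control library but 5.13 to 8.8% of an AEAA_low library. The depth of the libraries is unknown, because only TPM were used. The sex-linked transcripts went against the labels: the X-inactivation transcript Xist stood between 39.6 and 65.0 scaled TPM in all 9 libraries, the Y-linked genes Uty and Eif2s3y were listed at 0 throughout, Ddx3y was at 0 except for 0.0307 in Control replicate 1, and Kdm5d did not exceed 0.192. Lung markers were present in every library, with surfactant protein C (Sftpc) at 6549 scaled TPM or more. AEAA_low replicate 1 stood apart from the other 4 libraries of its group in the chemokine and cytokine genes, and the main results are therefore given with and without it. Because it was singled out on these values, fits without it are a description and no independent support. AEAA_low replicate 5 stood apart in skeletal muscle transcripts, with skeletal actin (Acta1) at 473 scaled TPM against 0.105 to 3.48 in the other 8 libraries, and so did LPS replicates 1 and 3, at 1828 and 1150.

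The promoters of 4 genes are shown first, because each belongs to a list described below with many changed genes: the neutrophil chemoattractant Cxcl2, the interferon-induced antiviral gene Rsad2, the clock repressor Ciart and the period gene Per3. Each sequence is the stretch of 250 bases upstream of the RefSeq gene start in GRCm38.p6, read 5′ to 3′ on the strand of the gene. Capitals mark the motif searched, on either strand: a kappaB site (GGNNTTTCC) in Cxcl2, an interferon-stimulated response element (AAANNGAAA) in Rsad2, an E-box (CACGTG) in Ciart and a D-box (TTANNTAA) in Per3. The printed genes were chosen after their values and sequences had been seen.
Cxcl2, chr5:90903649-90903898, plus strand: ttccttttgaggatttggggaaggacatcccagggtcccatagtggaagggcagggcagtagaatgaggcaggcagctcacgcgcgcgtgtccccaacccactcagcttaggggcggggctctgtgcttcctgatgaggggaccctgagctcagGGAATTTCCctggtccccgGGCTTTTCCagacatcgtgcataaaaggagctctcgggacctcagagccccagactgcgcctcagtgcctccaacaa
Rsad2, chr12:26456453-26456702, minus strand: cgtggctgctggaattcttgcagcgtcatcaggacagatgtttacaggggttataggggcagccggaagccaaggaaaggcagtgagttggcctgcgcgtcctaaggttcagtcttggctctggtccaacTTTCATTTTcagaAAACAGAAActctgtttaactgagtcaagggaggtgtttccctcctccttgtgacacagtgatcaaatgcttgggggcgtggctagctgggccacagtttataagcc
Ciart, chr3:95882229-95882478, minus strand: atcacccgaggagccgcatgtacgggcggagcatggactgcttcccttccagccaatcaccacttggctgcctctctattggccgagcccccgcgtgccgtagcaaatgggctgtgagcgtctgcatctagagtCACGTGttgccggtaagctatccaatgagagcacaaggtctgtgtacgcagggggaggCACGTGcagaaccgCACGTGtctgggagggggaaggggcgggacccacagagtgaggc
Per3, chr4:151044666-151044915, minus strand: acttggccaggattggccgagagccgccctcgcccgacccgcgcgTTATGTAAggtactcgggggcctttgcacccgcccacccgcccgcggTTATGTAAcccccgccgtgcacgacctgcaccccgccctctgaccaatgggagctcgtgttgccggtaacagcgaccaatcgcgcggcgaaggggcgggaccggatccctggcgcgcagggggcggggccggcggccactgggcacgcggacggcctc

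The Cxcl2 window held 2 kappaB matches, the Rsad2 window 2 response elements, the Ciart window 3 E-boxes and the Per3 window 2 D-boxes. Over the gene lists, 7 of the 12 chemokine genes with a promoter in the table held a kappaB match (58.3%), against 5.62% of all 27025 genes. An interferon-stimulated response element was present in 10 of 13 interferon-stimulated genes (76.9%) and in 9 of 9 interferon-gamma-inducible GTPases (100%), against 10.8% of all genes. Of 11 evening-phase clock genes, 4 held an E-box (36.4%, against 6.86%) and 2 a D-box (18.2%, against 6.3%). The E-box share was the same in type I alveolar cell genes (4 of 11) and 33.3% in glucocorticoid response genes, and D-boxes were in 22.2% of the GTPases and 20% of endothelial genes, so neither motif was particular to the clock list. These are matches of letters in a window and no measurement of binding.

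Across the 17823 genes tested, 2395 were higher in AEAA_low than in Control (13.4%) and 2152 were lower (12.1%; limma, Benjamini-Hochberg adjusted p under 0.05). Of these, 709 rose and 467 fell by 1 or more on the log2 scale. Without regard to a test, 2746 genes (15.4%) had all 5 AEAA_low libraries above all 4 Control libraries and 2338 (13.1%) had them all below. The increases were led by chemokines, cytokines and myeloid receptors (Cxcl2, Ccl3, Acod1, Cxcl5, Il1rn, Cxcl10, Il1b, Clec4e, Ccl20, Ccl2, Lcn2 and Clec4d). The decreases were led by a clock output (Dbp), by xenobiotic enzymes (Cyp1a1, Cyp2a5, Cyp2f2) and by genes of airway secretory cells (Scgb3a2, Cbr2, Scgb1a1). On the TPM as deposited the split was 7905 higher and 363 lower, because the median over all genes then lay at 0.36 instead of 0.013; 2758 genes were called in the same direction on both scales and 2 in opposite directions. List counts shifted with it: 18 of 18 NF-kB, 14 of 14 LPS-sensing, 12 of 12 GTPase, 9 of 12 oxidant, 11 of 13 metal, 9 of 15 coagulation, 11 of 16 complement and 5 of 18 immediate early genes then passed as higher, each over 1.5 times the count given below. Without AEAA_low replicate 1 the counts were 2894 and 2575. They fell furthest without AEAA_low replicate 4 (1258 higher) and without Control replicate 1 (1121 lower), and leaving out AEAA_low replicate 5 (1349 and 1277), Control replicate 3 (1353 and 1340) or, for the genes higher, Control replicate 4 (1406) also lowered them by more than 1.5 times.

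**Figure D1:**
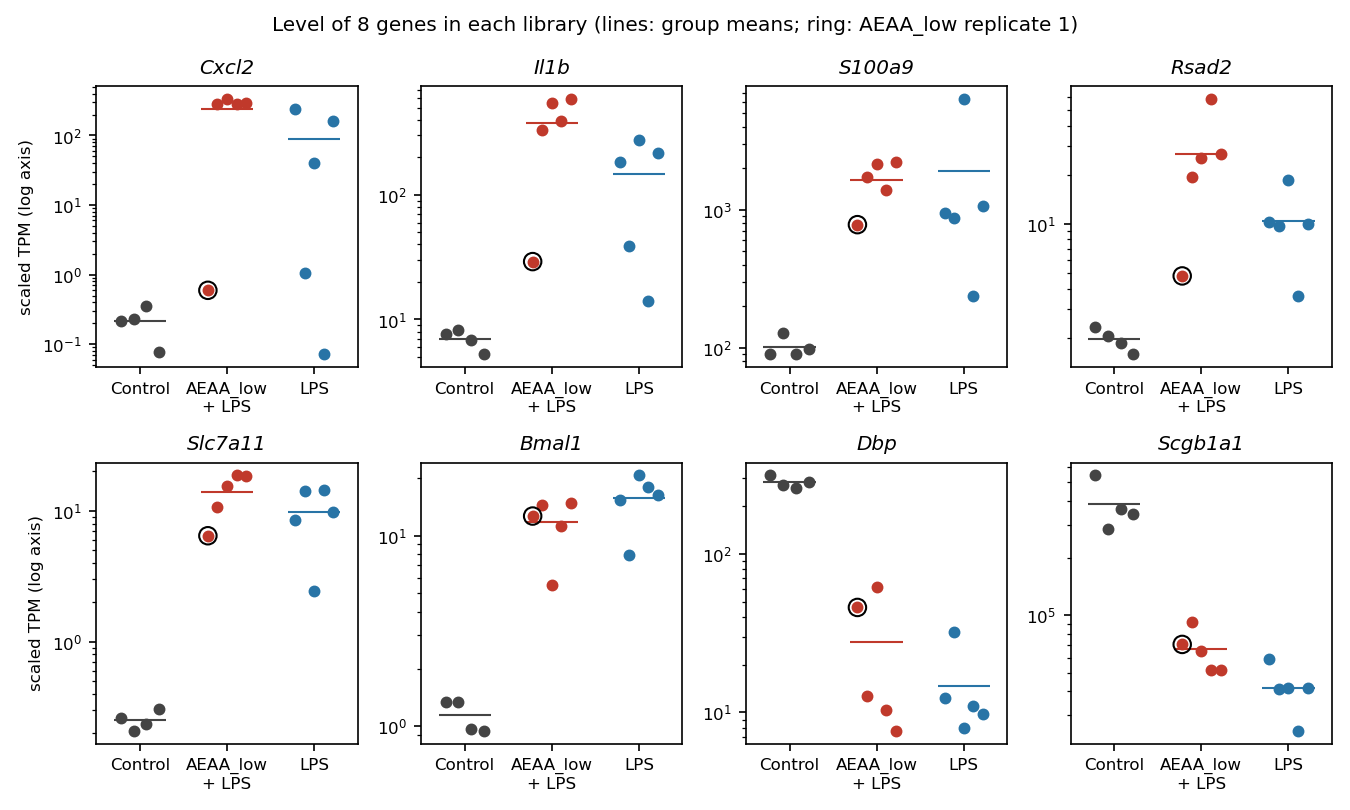
Scaled TPM (log axis) of 8 genes in each library of Control (n = 4), AEAA_low with LPS (n = 5) and LPS (n = 5). Points are libraries, lines are group means and the ring marks AEAA_low replicate 1, which lies at 0.595 for Cxcl2 while the other 4 libraries of its group lie at 279.8 or more, but lies with its group for Bmal1, Dbp and Scgb1a1.

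The chemokines had the highest median difference of the lists. Cxcl2 (ENSMUSG00000058427), a ligand of the neutrophil receptor CXCR2, stood between 0.0768 and 0.351 scaled TPM in the 4 Control libraries, at 0.595 in AEAA_low replicate 1 and at 281, 334, 279.8 and 296 in replicates 2 to 5. The groups did not overlap, but 1 of the 5 AEAA_low libraries lay just above Control and 4 lay far above it. Ccl3, a monocyte attractant, showed the same layout, with 0.721 to 1.64 in Control, 1.87 in AEAA_low replicate 1 and 424 to 456 in the other 4. The interferon-induced T cell attractant Cxcl10 stood at 1.78 to 3.43 in Control and at 4.82, 120, 356, 546 and 276 in AEAA_low. Cxcl5, an epithelial CXCR2 ligand, stood at 0.184 to 0.403 in Control and at 2.29, 60.9, 92.8, 116 and 261 in AEAA_low. In every one of these genes AEAA_low replicate 1 was the lowest library of its group and the other 4 formed a separate block.

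Of the 18 chemokines tested, 12 were higher and none lower, with a median difference of 4.25, against 0.013 over all genes tested. Cxcl2 rose by 6.43 ± 2.24 (log2, SE; adjusted p = 0.041), Ccl3 by 6.22 ± 2.09 (adjusted p = 0.035), Cxcl5 by 5.49 ± 1.56 (adjusted p = 0.017), Cxcl10 by 5.23 ± 1.42 (adjusted p = 0.014), and Ccl20, an attractant of dendritic cells and lymphocytes, by 4.87 ± 1.60 (adjusted p = 0.031). Cxcl1 and Cxcl3, named here after their values were seen, had differences of 4.19 and 5.98 but adjusted p of 0.068 and 0.056, with AEAA_low replicate 1 at 1.14 and 0.186 scaled TPM, below every Control library. Without AEAA_low replicate 1, 16 of the 18 chemokines passed and Cxcl2 rose by 7.94 (SE 2.18; adjusted p = 0.012). Replicate 1 was singled out on these same genes, so the larger count and difference are no independent support. Leaving out any other single library cut the count to between 3 (without Control replicate 1, 3 or 4) and 6 (without AEAA_low replicate 3). Cxcl2, Ccl3 and Ccl2 each missed the threshold without any 1 of those 8 libraries, with Cxcl2 at adjusted p of up to 0.086, whereas Cxcl5 and Cxcl10 passed in every such fit. On the TPM as deposited all 18 chemokines passed as higher.

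Of 16 cytokines tested, 10 were higher and none lower (median 2.29), among them members of the IL-1 family and the natural antagonist of IL-1. Il1b, a pyrogenic cytokine, stood at 5.24 to 8.29 scaled TPM in Control, at 29.1 in AEAA_low replicate 1 and at 332, 544, 393 and 588 in replicates 2 to 5. Il1rn, which encodes the IL-1 receptor antagonist, stood at 2.53 to 4.00 in Control and at 12.2, 320, 308, 427 and 378 in AEAA_low. Il36g, an IL-36 cytokine of epithelia and myeloid cells, stood at 0.921 to 1.56 in Control and at 5.67, 63.2, 58.6, 71.0 and 73.8 in AEAA_low. In these 3 genes replicate 1 lay above every Control library, unlike Il6, where it lay at 0.298 within the Control range of 0.102 to 0.663 while the other 4 lay between 5.46 and 24.9. Il1rn rose by 5.47 ± 1.62 (adjusted p = 0.021), Il1b by 5.05 ± 1.50 (adjusted p = 0.021), Il1a by 4.29 ± 1.52 (adjusted p = 0.044), Il36g by 4.19 ± 0.93 (adjusted p = 0.0054), Tnf by 4.02 ± 1.39 (adjusted p = 0.039) and Il6 by 2.59 ± 0.94 (adjusted p = 0.048). Csf3, the neutrophil growth factor, was listed at 0 in AEAA_low replicate 1 and stood at 11.2 to 17.2 in the others, and did not pass (adjusted p = 0.076). Nor did Il18, another IL-1 family cytokine, at 9.78 to 16.6 in Control and 24.8, 19.8, 19.1, 13.3 and 14.1 in AEAA_low (0.42, adjusted p = 0.22). The count was 13 without AEAA_low replicate 1 and 4 to 6 without any other library; Il36g alone of these 6 passed in every fit that left out 1 library, and Tnf, Il1a and Il6 passed only in the full set and without AEAA_low replicate 1.

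The inflammasome is the complex that cleaves pro-IL-1β. Of 12 inflammasome and pyroptosis genes tested, Il1b among them, 8 were higher and none lower, a count of 8 without AEAA_low replicate 1 and of as few as 3 without AEAA_low replicate 4 or 5 or Control replicate 4. It was also lowered by more than 1.5 times without Control replicate 3 (4 genes). The sensor Nlrp3 stood at 0.571 to 1.17 scaled TPM in Control and at 2.23, 22.9, 40.9, 37.2 and 38.3 in AEAA_low. It rose by 3.62 ± 1.04 (adjusted p = 0.018). Mefv, which encodes pyrin, rose by 3.41 ± 1.10 (adjusted p = 0.03), and Naip2, a receptor of bacterial secretion-system proteins, by 1.95 ± 0.48 (adjusted p = 0.0086). Nlrp3 and Naip2 passed without any 1 of the 9 libraries, and Mefv only without AEAA_low replicate 1.

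Of 14 LPS-sensing genes 9 were higher and none lower (median 0.82). The co-receptor Cd14 stood at 34.0 to 47.1 scaled TPM in Control and at 58.5, 348, 326, 433 and 536 in AEAA_low. Tlr2, the receptor of bacterial lipoproteins, rose by 3.20 ± 0.83 (adjusted p = 0.012), Cd14 by 2.77 ± 0.86 (adjusted p = 0.025), the adaptor Myd88 by 1.35 ± 0.36 (adjusted p = 0.012) and the kinase Irak2 by 1.10 ± 0.35 (adjusted p = 0.028). Of 18 NF-kB subunits and feedback genes 10 were higher and none lower (median 1.69). Socs3, an inhibitor of STAT3 signalling, stood at 16.0 to 18.4 in Control and at 34.4, 110, 154, 146 and 193 in AEAA_low, a rise of 2.63 ± 0.71 (adjusted p = 0.014). Tnip3 and Tnip1, which bind the deubiquitinase A20, rose by 2.56 and 2.03 (adjusted p = 0.018 and 0.028), and the inhibitor Nfkbie by 2.13 (adjusted p = 0.02). Without AEAA_low replicate 1 the counts were 11 of 14 and 15 of 18. Without 1 other library they fell to between 5 and 8 LPS-sensing genes (5 without AEAA_low replicate 4) and between 4 and 7 feedback genes (4 without AEAA_low replicate 5); Tlr2, Myd88 and Socs3 passed in all of these fits.

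Of 14 acute-phase genes 8 were higher and none lower (median 2.93; 5 with upper-quartile scaling). Lcn2, whose product lipocalin 2 withholds iron from bacteria, stood at 122 to 172 scaled TPM in Control, at 202 in AEAA_low replicate 1 and at 9532, 3975, 8292 and 10860 in replicates 2 to 5. Saa3, a serum amyloid A gene of extrahepatic tissue, stood at 5.33 to 14.9 in Control, at 32.6 in replicate 1 and at 8897, 3677, 7038 and 15700 in the others. Saa3 had the largest difference named here, 7.75 ± 2.90, and yet did not pass (adjusted p = 0.053; 0.023 without replicate 1). The genes that passed included Orm1 (5.07, adjusted p = 0.024), Lcn2 (4.58, adjusted p = 0.049), Il1r2 (3.91, adjusted p = 0.049) and Orm2 (3.84, adjusted p = 0.032). Haptoglobin (Hp) did not, at 1306 to 2115 in Control and 1111 to 2487 in AEAA_low (0.20, adjusted p = 0.76). The count was 12 without replicate 1 and between 2 and 4 without any other library, and Lcn2, Il1r2 and Orm2 passed in none of those other fits.

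Of 18 neutrophil markers tested 14 were higher and none lower, with a median of 3.10. S100a9, a subunit of the neutrophil protein calprotectin, stood at 89.5 to 127 scaled TPM in Control and at 780, 1736, 2160, 1389 and 2215 in AEAA_low, and its partner S100a8 at 50.2 to 76.2 and at 421, 1177, 1119, 910 and 1392. Clec4e, the Mincle receptor, stood at 0.583 to 1.03 in Control and at 2.76, 81.4, 87.5, 144 and 123 in AEAA_low. Cxcr2, the receptor of Cxcl2 and Cxcl5, and Csf3r, the receptor of the growth factor encoded by Csf3, were named after their values were seen: replicate 1 held 12.8 and 28.4 against at most 1.74 and 6.70 in Control. S100a9 rose by 3.94 ± 1.19 (adjusted p = 0.022), S100a8 by 3.86 ± 1.23 (adjusted p = 0.028), Cxcr2 by 3.56 (adjusted p = 0.007) and Csf3r by 3.29 (adjusted p = 0.0068). The primary granule genes Elane and Mpo did not reach the filter, with at most 0.19 and 0.385 scaled TPM in the 9 libraries. In bulk tissue more neutrophils and more RNA of these genes per cell cannot be told apart. The count stayed at 14 without replicate 1 and was between 3 (without Control replicate 1) and 8 (without AEAA_low replicate 2) without any other library.

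Markers of alveolar macrophages, the resident phagocytes of the air spaces, were higher in sum in all 5 AEAA_low libraries than in any Control library. Their summed level was 1335 to 1624 scaled TPM in AEAA_low and 609.7 to 639 in Control. Chil3, a chitinase-like protein, stood at 166 to 201 in Control and at 628, 844, 651, 631 and 738 in AEAA_low, so that replicate 1 did not stand apart. Marco, a scavenger receptor, stood at 7.49 to 10.7 in Control and at 15.7, 88.9, 45.0, 98.2 and 100.4 in AEAA_low. Of 15 markers 9 were higher and none lower (median 1.01): Marco rose by 2.61 ± 0.86 (adjusted p = 0.032), Chil3 by 1.88 ± 0.57 (adjusted p = 0.023), Atp6v0d2, a proton pump subunit, by 1.78 ± 0.43 (adjusted p = 0.0086) and sialoadhesin (Siglec1) by 1.76 ± 0.49 (adjusted p = 0.016). Without 1 library between 5 (without Control replicate 4) and 9 of the 15 passed.

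Of 18 markers of recruited monocytes and macrophages 12 were higher and none lower (median 2.05), 15 without AEAA_low replicate 1, 5 without AEAA_low replicate 4, 6 without Control replicate 4, and 7 without AEAA_low replicate 5 or Control replicate 1 or 3. The integrin Itgam rose by 3.09 ± 1.07 (adjusted p = 0.039), the macrophage receptor Adgre1 by 2.85 ± 0.80 (adjusted p = 0.017) and the Fc receptor Fcgr4 by 2.80 ± 0.77 (adjusted p = 0.015). Fcgr4 stood at 3.02 to 4.51 scaled TPM in Control and at 14.2, 33.8, 25.0, 87.7 and 29.2 in AEAA_low, highest in replicate 4. Itgam passed only in the full set and without AEAA_low replicate 1. Adhesion molecules that carry leukocytes out of the blood rose in 9 of 12 genes with none lower (10 without AEAA_low replicate 1, 4 without Control replicate 4, 5 to 7 without any other library). Itgb2, the β2 integrin chain, rose by 2.22 ± 0.60 (adjusted p = 0.014) and its partner Itgal by 1.68 ± 0.43 (adjusted p = 0.011). Itgal stood at 9.35 to 12.6 in Control and at 27.3, 32.8, 37.3, 42.4 and 40.6 in AEAA_low, with replicate 1 above every Control library.

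Of 16 T and NK cell markers 6 were higher and none lower (15 on the TPM as deposited), and the count was 1 without Control replicate 1 or 4, 2 without AEAA_low replicate 4 or Control replicate 3, and 3 without AEAA_low replicate 3. The NK cell receptor Ncr1 rose by 1.06 ± 0.28 (adjusted p = 0.013), perforin (Prf1) by 1.09 ± 0.35 (adjusted p = 0.03) and Nkg7, a cytotoxic granule gene, by 1.08 ± 0.37 (adjusted p = 0.038). Prf1 stood at 1.51 to 3.17 scaled TPM in Control and at 5.48, 5.62, 4.48, 7.59 and 4.53 in AEAA_low. Ncr1 lost its call only without Control replicate 1 (adjusted p = 0.054). Of 10 B cell markers Cd22 alone was higher (3 on the TPM as deposited). It missed the threshold when any 1 of 6 libraries was left out, at adjusted p up to 0.12, and at 0.097 without AEAA_low replicate 1. Of 10 MHC class II genes Ciita, their master activator, alone was higher (3 on the TPM as deposited, Ciita 0.95 ± 0.34, adjusted p = 0.045). Ciita missed the threshold when any 1 of 7 libraries was left out, at adjusted p up to 0.12. With 13.4% of all genes higher, neither count is a result about its list.

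The median difference of the 20 interferon-stimulated genes from the Control mean was 0.45 in AEAA_low replicate 1 and highest, at 2.90, in replicate 4. Rsad2, whose promoter is printed above, stood at 1.57 to 2.33 scaled TPM in Control and at 4.78, 19.2, 25.3, 58.2 and 26.9 in AEAA_low. Zbp1, a sensor of Z-form nucleic acids, stood at 5.80 to 8.52 in Control and at 19.3, 56.1, 69.1, 198 and 91.2. The GTPase gene Gbp6, whose family attacks the membranes of intracellular pathogens, stood at 5.58 to 6.60 and at 14.1, 30.8, 44.9, 138 and 69.2. Replicate 1 was the lowest and replicate 4 the highest AEAA_low library in these 3 genes, whereas replicate 4 was not the highest in Cxcl2 or Il1b. Of 20 interferon-stimulated genes 15 were higher and none lower (median 1.65), and of 12 interferon-gamma-inducible GTPases 7 were higher and none lower (median 1.78). Zbp1 rose by 3.09 ± 0.84 (adjusted p = 0.014), Rsad2 by 2.90 ± 0.71 (adjusted p = 0.0086), Gbp6 by 2.68 ± 0.69 (adjusted p = 0.011) and Igtp by 1.96 ± 0.67 (adjusted p = 0.037). Without AEAA_low replicate 4 the counts were 3 of 20 and 1 of 12. Without AEAA_low replicate 1 they were 18 and 10, and without Control replicate 3 they were 6 and 1. They were also lowered by more than 1.5 times without AEAA_low replicate 5 (6 and 2), Control replicate 1 (6 and 2) or Control replicate 4 (8 and 2). The GTPase count alone was so lowered without AEAA_low replicate 3 (4) or Control replicate 2 (3). Zbp1, Rsad2 and Gbp6 passed in every one of these fits; Tgtp1, which rose by 2.78 (adjusted p = 0.021), has a near-identical neighbour, Tgtp2, and its reads may be split between them.

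**Figure D2:**
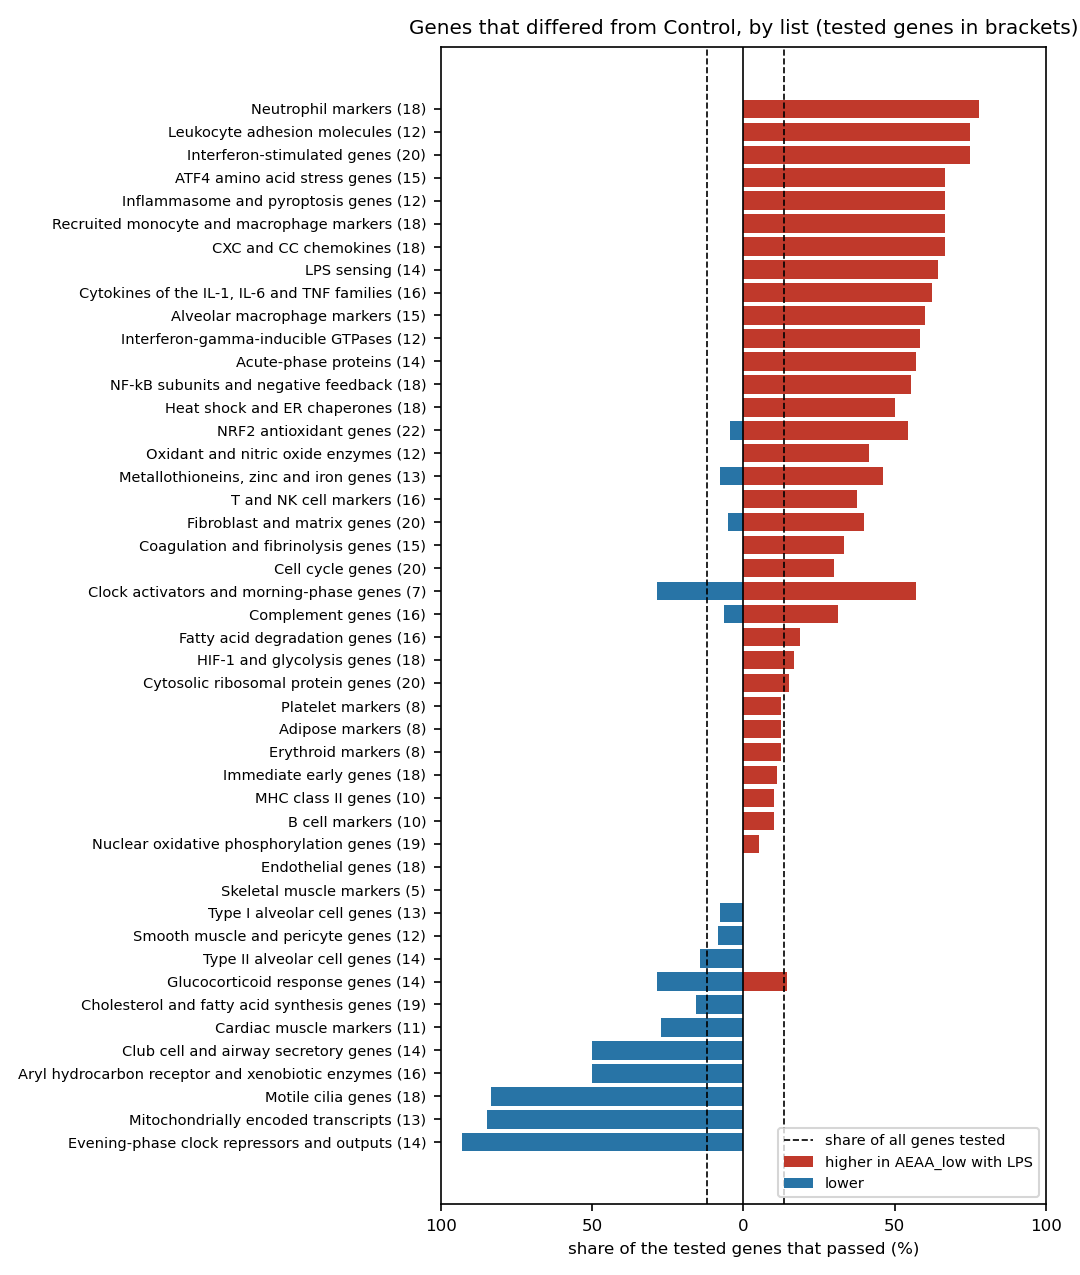
Share of the tested genes of each list (number in brackets) that passed as higher (red) or lower (blue) in AEAA_low with LPS than in Control, with dashed lines at the share of all genes tested, 13.4% higher and 12.1% lower. Neutrophil markers (14 of 18), adhesion molecules (9 of 12) and interferon-stimulated genes (15 of 20) lie furthest to the right, and evening-phase clock genes (13 of 14), mitochondrially encoded transcripts (11 of 13) and cilia genes (15 of 18) furthest to the left.

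Library by library, AEAA_low replicate 1 was the library most often at odds with its group. Of the 2395 genes higher in AEAA_low, replicate 1 failed to exceed every Control library in 257 (10.7%), against 72, 34, 41 and 38 in replicates 2 to 5. Of the 2152 genes lower, it failed to lie below every Control library in 303 (14.1%), against 89, 58, 35 and 36. Among all genes tested, called or not, 920 had replicate 1 alone within the Control range with the other 4 below it, against 119 to 221 for each of the others. Regardless of any test, 1014 genes had replicate 1 alone within the Control range with the other 4 above it, against 116 to 187 for each of the others, and in 65 of them the other 4 lay at least 1 on the log2 scale above the highest Control library, against at most 2 for any other replicate. The 8 widest such gaps for replicate 1 included Ccl4, Il1a, Orm1 and Csf3, as well as Tarm1, a myeloid receptor, and Tnfrsf9, the costimulatory receptor 4-1BB. Ccl4 stood at 1.60 to 3.67 scaled TPM in Control, at 2.27 in replicate 1 and at 137 to 257 in the others. The median difference of the 18 chemokines from the Control mean was 0.43 in replicate 1 and 4.89 to 5.81 in replicates 2 to 5. That of the acute-phase genes was 0.48 against 2.84 to 4.26, and that of the NF-kB list 0.32 against 1.73 to 2.29. Neutrophil markers were intermediate, at 1.40 against 2.83 to 3.57. Some lists did not follow this order: alveolar macrophage markers stood at 1.23 in replicate 1 and at 0.72 to 1.12 in the others, evening-phase clock genes at −1.54 against −1.45 to −2.24, cardiac muscle markers at −1.12 against −1.05 to −1.69, and club cell genes at −0.619 against −0.398 to −2.22. Replicate 1 was nearest to Control for cilia genes (−0.491 against −0.888 to −1.37) and xenobiotic enzymes (−0.411 against −0.516 to −1.38).

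**Figure D3:**
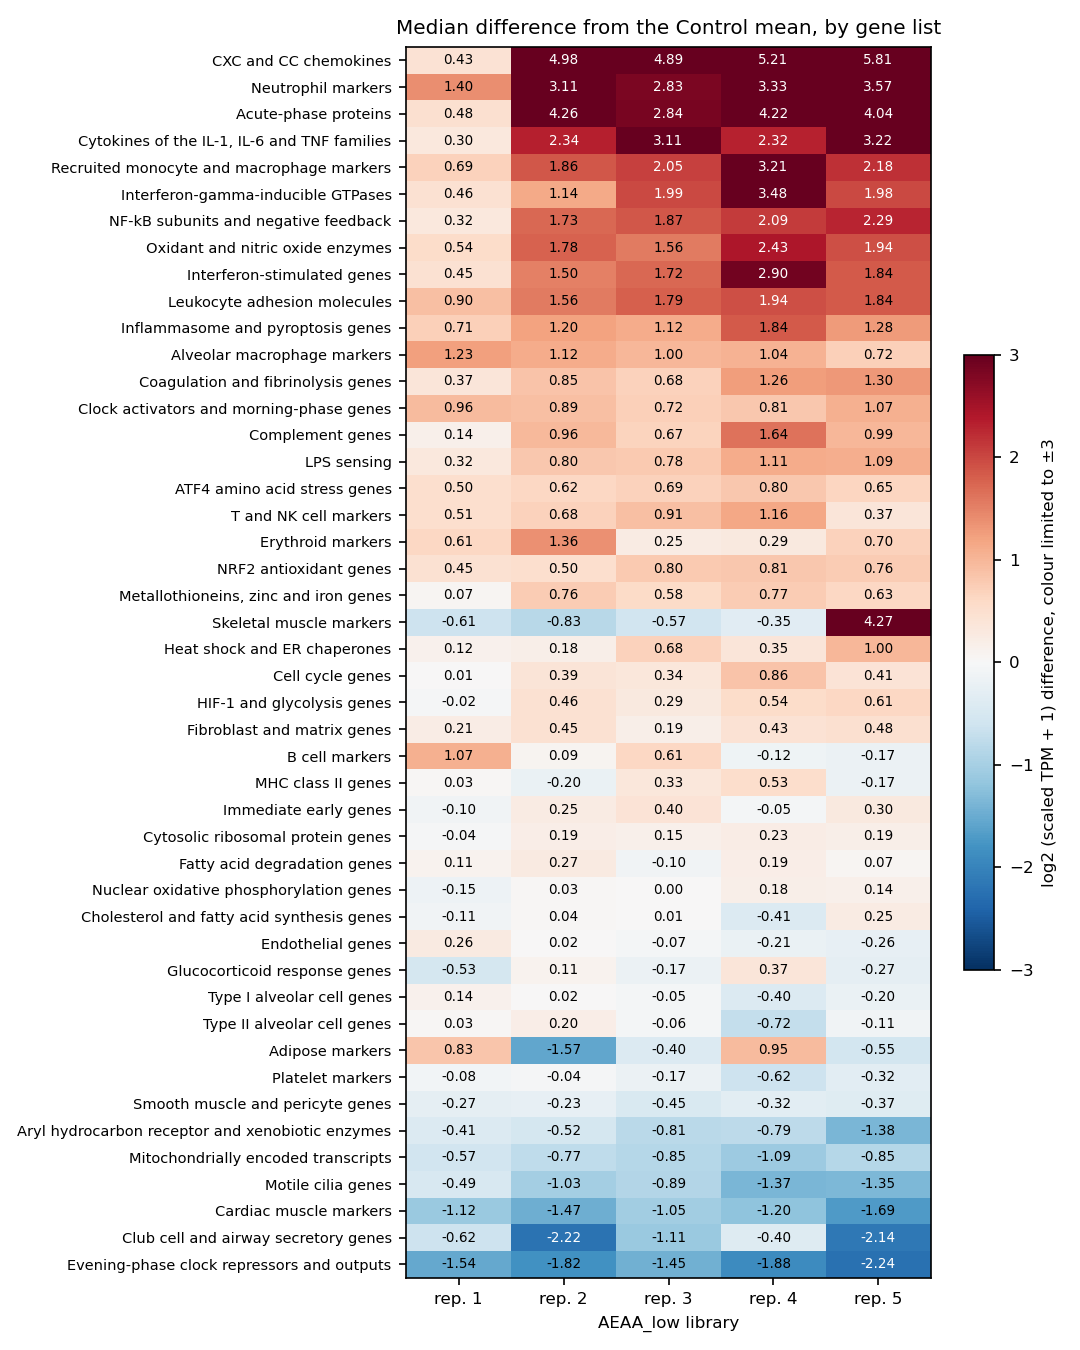
Median over the tested genes of each list of the difference between an AEAA_low library and the Control mean (log2 of scaled TPM + 1; colours limited to ±3), with lists ordered by their fitted median and libraries in columns. Replicate 1 is pale for chemokines (0.43) and acute-phase genes (0.48) and coloured like the others for alveolar macrophage markers (1.23) and evening-phase clock genes (−1.54); replicate 5 alone is red for skeletal muscle.

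Of 12 oxidant and nitric oxide genes 5 were higher and 7 did not pass. Acod1, which makes itaconate, not an oxidant, in activated macrophages, stood at 0.0307 to 0.104 scaled TPM in Control and at 0.586, 72.2, 154, 239 and 132 in AEAA_low, a rise of 5.72 ± 1.92 (adjusted p = 0.035). Cybb, the catalytic subunit of the phagocyte NADPH oxidase, stood at 7.02 to 13.3 and at 31.6, 66.9, 64.5, 114 and 97.9, a rise of 2.79 ± 0.68 (adjusted p = 0.009). The count of 5 was 8 without AEAA_low replicate 1, and 1 without AEAA_low replicate 4 or Control replicate 1 or 3. It was 2 without Control replicate 4 and 3 without any of the remaining libraries. Cybb passed without any 1 library, and Acod1 only without AEAA_low replicate 1.

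The cystine carrier Slc7a11, which supplies cysteine for glutathione, had one of the smallest p-values of the named genes. It stood at 0.209 to 0.307 scaled TPM in Control and at 6.45, 10.8, 15.4, 18.7 and 18.4 in AEAA_low. It rose by 3.49 ± 0.36 (adjusted p = 1.2e-05), with replicate 1 far above Control, and its adjusted p did not exceed 0.00012 without any 1 library. Gsta1, a glutathione transferase, stood at 0.982 to 3.14 in Control and at 68.4, 39.3, 46.5, 14.3 and 31.9 in AEAA_low, and was highest in replicate 1. It rose by 3.60 ± 0.69 (adjusted p = 0.0021). Haem oxygenase 1 (Hmox1) rose by 2.18 ± 0.55 (adjusted p = 0.01) and ferritin heavy chain (Fth1) by 1.86 ± 0.64 (adjusted p = 0.039), the latter only in the full set and without AEAA_low replicate 1. Of the 22 NRF2 antioxidant genes 12 were higher and 1 was lower, Gstm1 (−0.73, adjusted p = 0.045), a call kept only without AEAA_low replicate 1 or Control replicate 2. Nfe2l2 itself, which encodes NRF2, differed by −0.02 (adjusted p = 0.89), and Nqo1, a classical NRF2 target, by 0.20 (adjusted p = 0.66). Between 9 and 13 of the 22 were higher without any 1 library.

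Of 16 genes of the aryl hydrocarbon receptor and of xenobiotic enzymes 8 were lower and none higher, whereas 6 were lower and 5 higher on the TPM as deposited. Cyp1a1, the best-known target of the aryl hydrocarbon receptor, stood at 34.3 to 56.6 scaled TPM in Control and at 4.63, 1.93, 3.65, 10.7 and 0.402 in AEAA_low. Cyp2f2, an abundant P450 of club cells, stood at 3108 to 5159 and at 1015, 698, 706, 423 and 333. No AEAA_low library reached the lowest Control library in either gene, replicate 1 included. Cyp1a1 fell by 3.39 on the log2 scale (SE 0.58; adjusted p = 0.00099), Cyp2a5 by 2.94 (SE 0.64; adjusted p = 0.0047) and Cyp2f2 by 2.79 (SE 0.46; adjusted p = 0.00078). Between 6 and 8 of the list were lower without any 1 library. The receptor itself, Ahr, differed by 0.24 (adjusted p = 0.42), and its targets Cyp1b1 and Tiparp by 0.64 and 0.09 (adjusted p = 0.1 and 0.6). Reads of Cyp2a5 may be shared with its close paralogs.

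Of 14 club cell and airway secretory genes 7 were lower and none higher (6 or 7 lower without any 1 library). Scgb1a1 (ENSMUSG00000024653), which encodes the club cell secretory protein, stood at 543500, 285000, 361500 and 339200 scaled TPM in Control and at 70380, 92740, 65000, 51450 and 51570 in AEAA_low. It fell by 2.52 (SE 0.31; adjusted p = 4.8e-05), and by 2.10 on the TPM as deposited (adjusted p = 1e-05). Scgb3a2, another secretoglobin, stood at 5078 to 10240 in Control and at 3237, 822, 1769, 1054 and 502 in AEAA_low, and fell by 2.64 (SE 0.69; adjusted p = 0.012). Cbr2, a carbonyl reductase of club cells, fell by 2.59 (SE 0.51; adjusted p = 0.0024). The 7 that did not pass included the secreted defence genes Bpifa1 (−1.60, adjusted p = 0.23), Reg3g (0.80, adjusted p = 0.37) and Pigr (0.91, adjusted p = 0.32), named after their values were seen. Vpreb3, known from B cell precursors, fell with the club cell genes, from 103 to 176 in Control to 15.2 to 37.1 in AEAA_low (−2.53 ± 0.31, adjusted p = 4.8e-05). Pon1, a lipid lactonase, and Thrsp, a regulator of lipid synthesis, fell by 2.95 and 2.71 (adjusted p = 0.0048 and 0.0085).

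Genes of motile cilia build the beating axoneme of ciliated cells. Tekt1, a tektin of ciliary doublets, stood at 28.1 to 48.0 scaled TPM in Control and at 21.0, 15.2, 17.5, 11.1 and 11.6 in AEAA_low, a fall of 1.21 (SE 0.24; adjusted p = 0.0024). Dnah5, an outer arm dynein, fell by 1.29 (SE 0.32; adjusted p = 0.0096) and Dynlrb2, a dynein light chain, by 1.28 (SE 0.32; adjusted p = 0.0093). Of 18 cilia genes 15 were lower and none higher (median −1.01). This count depended on the scaling: on the TPM as deposited 3 were lower and 1 higher. It was 15 without AEAA_low replicate 1, 9 without AEAA_low replicate 5 and 7 without Control replicate 1.

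The summed level of 14 type II alveolar cell genes lay at 54890 to 61240 scaled TPM in Control and at 14110 to 45500 in AEAA_low. In Control most of this sum was Sftpc, and the median difference of the list was −0.16. Of the 14 genes 12 did not pass and 2 were lower, near the 12.1% of all genes tested. Sftpc, the surfactant gene, fell by 1.61 (SE 0.57, adjusted p = 0.042). Nkx2-1, the transcription factor of lung epithelium, fell by 0.75 (SE 0.20, adjusted p = 0.014). Sftpc stood at 43360 to 49670 scaled TPM in Control and at 34490, 19150, 23480, 6549 and 7248 in AEAA_low, with replicate 1 nearest to Control. Without AEAA_low replicate 1 the type II count was 5; Sftpc missed the threshold without any of 7 libraries (all but AEAA_low replicates 1 and 3; adjusted p up to 0.12). Of 13 type I genes Hopx alone was lower (−0.66 ± 0.18, adjusted p = 0.016), no more than the 12.1% of all genes and no result about the list. On the TPM as deposited none of Sftpc, Nkx2-1 and Hopx passed, and 6 of the 14 type II and 5 of the 13 type I genes passed as higher. Of 18 endothelial genes none passed in either direction with limma, and 7 passed as higher on the TPM as deposited; Pecam1, an endothelial adhesion molecule, differed by 0.29 ± 0.17 (adjusted p = 0.19) and Cldn5, a tight junction protein, by −0.02 ± 0.11 (adjusted p = 0.9), and Cldn5 was higher by 0.40 (adjusted p = 0.012) on the TPM as deposited.

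Of 20 fibroblast and matrix genes 8 were higher (median 0.373). Their summed level was nevertheless lower, at 2825 to 4280 scaled TPM in AEAA_low and 4553 to 4882 in Control. Spon2, a secreted matrix protein, stood at 2.85 to 4.72 scaled TPM in Control and at 30.8, 25.5, 26.8, 16.9 and 47.2 in AEAA_low, a rise of 2.63 ± 0.31 (adjusted p = 4.7e-05). Elastin (Eln) stood at 28.7 to 52.2 and at 93.5, 360.1, 56.2, 160.3 and 168 and rose by 1.92 ± 0.52 (adjusted p = 0.014), Col3a1 by 1.32 ± 0.29 (adjusted p = 0.0047) and fibronectin (Fn1) by 1.18 ± 0.36 (adjusted p = 0.022). A single gene of the list was lower, the mesenchymal factor Tcf21 (−0.85, adjusted p = 0.016), and the count of higher genes was 5 without Control replicate 1 or 4. Of 12 smooth muscle and pericyte genes the pericyte proteoglycan Cspg4 alone was lower (−0.53 ± 0.16, adjusted p = 0.021, and 0.059 without Control replicate 2). That count is no more than the 12.1% of all genes lower and no result about the list.

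Circadian clock genes were among the named genes with the smallest p. Bmal1 (ENSMUSG00000055116), the core activator, stood at 0.948 to 1.35 scaled TPM in Control and at 12.7, 14.4, 5.52, 11.3 and 14.8 in AEAA_low. Dbp, an output transcription factor, stood at 261 to 312 in Control and at 45.9, 12.7, 61.8, 10.4 and 7.63 in AEAA_low. Ciart stood at 26.9 to 32.5 and at 2.54, 4.72, 7.13, 4.20 and 4.86. Replicate 1 lay with the other AEAA_low libraries in all 3 genes, and was the lowest of them for Ciart. Bmal1 rose by 2.50 ± 0.36 (adjusted p = 0.0002), its partner Npas2 by 1.69 ± 0.24 (adjusted p = 0.0002), Clock by 0.89 ± 0.10 (adjusted p = 3.7e-05) and Nfil3, a repressor that competes with DBP for D-boxes, by 2.40 ± 0.51 (adjusted p = 0.0041). Of the 7 activators and morning-phase genes these 4 were higher and 2 were lower, among them Rora, an activator of Bmal1 (−0.50, adjusted p = 0.0085). None of the 7 was lower on the TPM as deposited.

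Of the 14 evening-phase repressors and outputs 13 were lower (median −1.82), the exception being Bhlhe40 (0.68, adjusted p = 0.16). Dbp fell by 3.76 (SE 0.73; adjusted p = 0.0022), Ciart by 2.49 (SE 0.34; adjusted p = 0.00014), Hlf by 2.44 (SE 0.44; adjusted p = 0.0014) and Per3 by 2.38 (SE 0.38; adjusted p = 0.00057). Per3 stood at 31.4 to 34.5 scaled TPM in Control and at 6.65, 5.91, 9.57, 3.97 and 3.34 in AEAA_low. Wee1, a kinase of the cell cycle under clock control, named after its values were seen, stood at 15.1 to 17.6 and at 4.68 to 7.01 (−1.37, adjusted p = 2.6e-06). The count was 12 or 13 without any 1 library and 11 on the TPM as deposited. The part of the hour of sampling in these differences was not tested.

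The ATF4 list, which serves amino acid supply, had 10 of 15 genes higher and none lower (median 0.76; 8 to 11 without any 1 library). Phgdh, the entry enzyme of serine synthesis, stood at 5.62 to 6.67 scaled TPM in Control and at 18.2, 22.2, 18.0, 20.1 and 27.7 in AEAA_low (1.60 ± 0.20, adjusted p = 4.8e-05). Mthfd2, a mitochondrial folate enzyme, rose by 1.62 ± 0.31 (adjusted p = 0.0021) and Psat1 by 1.31 ± 0.22 (adjusted p = 0.0007). Of 18 heat shock and endoplasmic reticulum chaperones 9 were higher and none lower (6 to 10 without any 1 library). The chaperone Hspa5, or BiP, stood at no more than 207 in Control and at 369.9, 438, 642, 523 and 742 in AEAA_low (1.39 ± 0.18, adjusted p = 6.1e-05), and Sdf2l1, its cofactor, rose by 2.17 ± 0.30 (adjusted p = 0.00015).

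Among metal-handling genes 6 of 13 were higher and 1 was lower. Metallothionein 2 (Mt2) rose by 3.07 ± 1.02 (adjusted p = 0.033) and stood at 101 scaled TPM in AEAA_low replicate 1 and at 558 to 1494 in the others, against 59.9 to 84.3 in Control. The phagosomal metal carrier Slc11a1 rose by 3.03 ± 0.98 (adjusted p = 0.03) and the zinc carrier Slc39a14 by 2.34 ± 0.69 (adjusted p = 0.02). Hamp, which encodes the iron hormone hepcidin, fell by 2.29 (SE 0.58; adjusted p = 0.011), from 48.6 to 113 in Control to 7.32 to 29.5 in AEAA_low. Without any 1 library other than AEAA_low replicate 1 the count of higher genes was 1 to 3, and Hamp passed in every such fit. Of 14 glucocorticoid response genes 2 were higher, near the 13.4% of all genes, and 4 lower, against 12.1% of all genes (list median −0.13). Those higher were Mt2, counted above as well, and the cell cycle inhibitor Cdkn1a (1.88 ± 0.44, adjusted p = 0.0066). Among those lower were Per1, also an evening-phase clock gene (−1.74 ± 0.43, adjusted p = 0.0097), and Tsc22d3, or GILZ (−1.43 ± 0.28, adjusted p = 0.0026). Tsc22d3 stood at 292 to 433 in Control and at 75.2, 219.8, 111, 198 and 92.8 in AEAA_low. The remaining 8 genes of that list, Dusp1 and Sgk1 among them, did not pass.

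Of 15 coagulation genes 5 were higher, among them factor X (F10, 3.46 ± 1.14, adjusted p = 0.032) and urokinase (Plau, 1.20 ± 0.23, adjusted p = 0.0022), and of 16 complement genes 5, among them the anaphylatoxin receptor C5ar1 (3.16 ± 0.84, adjusted p = 0.013) and C3 (1.54 ± 0.54, adjusted p = 0.044). The complement inhibitor Cd55 was lower (−0.57 ± 0.20, adjusted p = 0.041), a call lost without AEAA_low replicate 2, 4 or 5 or Control replicate 1, 2 or 3. Plau stood at 5.03 to 6.78 scaled TPM in Control and at 11.3, 12.7, 17.7, 13.2 and 17.3 in AEAA_low, and C5ar1 at 2.88 to 4.51 and at 17.3, 45.0, 37.3, 57.1 and 60.1. The counts were 7 and 9 without AEAA_low replicate 1. Without any other library they were 1 to 6 and 2 to 4, and Plau and C5ar1 passed in all of those fits. Of 20 cell cycle genes 6 were higher, against 13.4% of all genes and 13 of 20 on the TPM as deposited, with the replication factor Mcm5 at 1.38 ± 0.28 (adjusted p = 0.0032), and the count was 3 without AEAA_low replicate 4 or Control replicate 1, 3 or 4. Of 18 immediate early genes only Egr2 and Myc were higher (1.40 ± 0.48 and 1.37 ± 0.28, adjusted p = 0.039 and 0.0029), Egr2 only in the full set and without AEAA_low replicate 1. That count is no more than the 13.4% of all genes and no result about the list.

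Of 13 transcripts of the mitochondrial genome 11 were lower and none higher (median −0.83; 8 to 11 without any 1 library), while of 19 nuclear oxidative phosphorylation genes 1 was higher (Atp5f1b, 0.47 ± 0.17, adjusted p = 0.048, lost without any library but AEAA_low replicate 1) and none lower. The ribosomal RNA mt-Rnr2 stood at 569 to 716 scaled TPM in Control and at 357, 289.5, 329, 213 and 329 in AEAA_low, a fall of 1.08 (SE 0.21; adjusted p = 0.0022). Both counts depended on the scaling: on the TPM as deposited 1 of the 13 was lower and 18 of the 19 nuclear genes were higher. Of 18 HIF-1 and glycolysis genes 3 were higher, near the 13.4% of all genes (12 on the TPM as deposited), with Gapdh at 0.95 ± 0.24 (adjusted p = 0.01) and Eno1 at 1.21 ± 0.38 (adjusted p = 0.025), and 1 without AEAA_low replicate 4 or Control replicate 1. Cpt1a, the gate of fatty acid oxidation, rose by 0.89 ± 0.14 (adjusted p = 0.00051), and the desaturases Scd1 and Scd2 fell by 0.77 and 0.83 (adjusted p = 0.027 and 0.0077). On the TPM as deposited no gene of the cholesterol and fatty acid synthesis list was lower and 9 of 19 were higher. Some mitochondrial genes overlap, and Gapdh, Fth1 and the ribosomal protein genes have many pseudogenes, so that their reads may be split between copies.

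The LPS group without extract shares its challenge with AEAA_low, and the direct difference between both groups was tested in the same model. Both comparisons with Control use the same 4 Control libraries. Cxcl2 stood at 240.2, 1.06, 40.05, 0.0712 and 163 scaled TPM in the 5 LPS libraries, so that 2 of 5 lay near Control, where 1 of 5 AEAA_low libraries did. AEAA_low was known beforehand as the dose group with the most strong-Cxcl2 lungs. This count and the differences below for Cxcl2, the chemokines, Il1b and the neutrophil markers are therefore no independent support for a difference from LPS. AEAA_low exceeded LPS by 2.36 ± 2.12 for Cxcl2 (adjusted p = 0.63), by 1.51 for Il1b (adjusted p = 0.64), by 1.08 for Rsad2 (adjusted p = 0.45), by 0.55 for Slc7a11 (adjusted p = 0.46), by 0.59 for Dbp (adjusted p = 0.71) and by 0.69 for Scgb1a1 (adjusted p = 0.25). With standard errors of this size a missed threshold does not show that the groups were alike. The median AEAA_low minus LPS difference was 1.39 over the chemokines and 0.49 over the neutrophil markers, with no gene passing in either list. With 1.62% of all genes higher and 0.488% lower, these counts lie near the background and say nothing about the lists. Of 18 markers of recruited monocytes and macrophages 1 passed as higher, the lysozyme gene Lyz2 (0.52, adjusted p = 0.028). Of 16 T and NK cell markers 1 did, the T cell receptor subunit Cd3d (0.81, adjusted p = 0.0499). Single genes of this kind are no result about these lists.

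Over all genes 289 were higher in AEAA_low than in LPS (1.62%) and 87 were lower (0.488%), of which 57 also differed between AEAA_low and Control. The 5 with the smallest p in each direction among these 57 had small changes: higher were Sdhaf4, an assembly factor of succinate dehydrogenase (0.54, adjusted p = 0.012), Rpp21, a subunit of RNase P (0.61, adjusted p = 0.012), Nenf (0.48, adjusted p = 0.017), Ntan1 (0.37, adjusted p = 0.02) and the ATP synthase subunit Atp5pf (0.52, adjusted p = 0.021). Lower were the mitochondrial serine enzyme Shmt2 (−0.50, adjusted p = 0.016), Zfp276 (−0.41, adjusted p = 0.024), Pan2 (−0.36, adjusted p = 0.027), Rgl2 (−0.36, adjusted p = 0.03) and Maskbp3 (−0.34, adjusted p = 0.033). Sdhaf4 stood at 45.5 to 58.5 scaled TPM in Control, at 31.4 to 36.4 in AEAA_low and at 21.8 to 25.4 in LPS, with no overlap among the 3 groups, and Shmt2 at 13.7 to 14.8, 18.4 to 21.5 and 25.6 to 35.0. AEAA_low lay between Control and LPS in both. Of 20 ribosomal protein genes 8 and of 19 nuclear oxidative phosphorylation genes 4 were higher in AEAA_low than in LPS, and none lower. On the TPM as deposited the counts over all genes were 220 and 1672, and they varied between 55 and 325 and between 7 and 90 without any 1 library of both groups.

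These calls went with gene length, taken as the union of all exons of a gene in a GENCODE annotation and not as the length of a single transcript. Among 16407 genes with a length (92.1% of those tested), split into 10 bins by length, the bin of shortest genes (median 603 bases) held 100 genes higher and 1 lower in AEAA_low than in LPS, and the bin of longest genes (median 11728 bases) held 2 higher and 22 lower. Across genes, which are not independent replicates, Spearman's rho between length and the AEAA_low minus LPS difference was −0.26, against 0.027 for AEAA_low minus Control. In the comparison with Control the shortest bin held 108 genes higher and 176 lower, and the longest 268 and 176. The part of length in these calls was not tested.

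**Figure D4:**
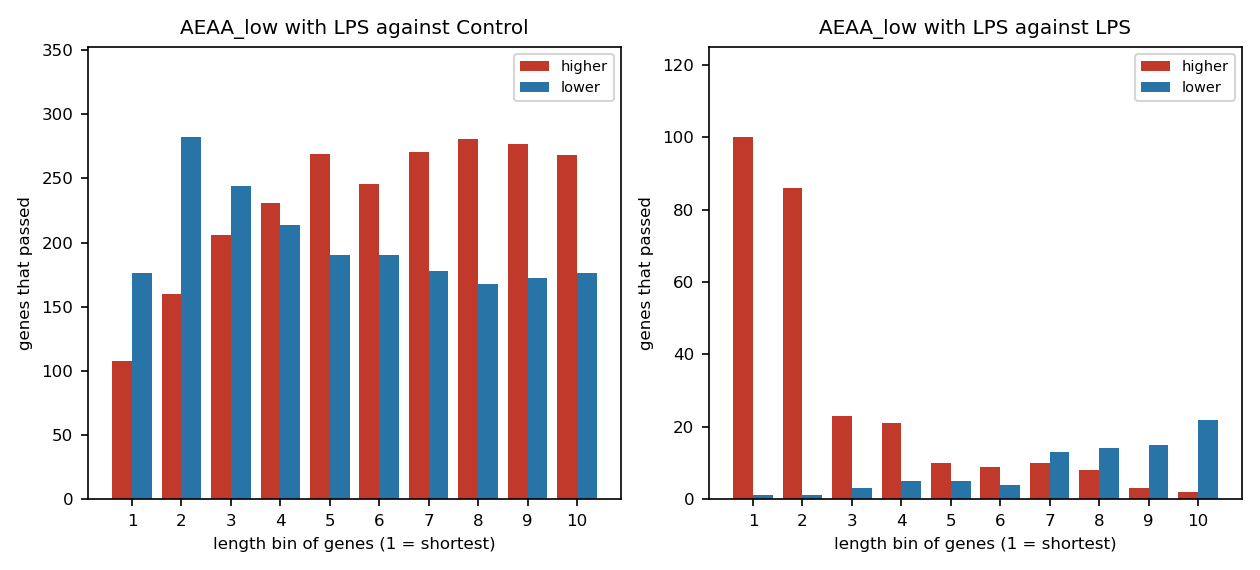
Number of genes that passed as higher (red) or lower (blue), in 10 bins of genes ordered by the length of the union of their exons. AEAA_low with LPS is compared with Control (left) and with LPS (right, different vertical scale). On the right the genes higher fall from 100 in the shortest bin to 2 in the longest while the genes lower rise from 1 to 22.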

How the data were processed

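RNA was measured by bulk sequencing of mouse lung. The deposited table holds TPM per gene for 24 libraries in 5 groups; per the submitters' processing notes, HISAT2, StringTie, RSEM, DESeq2 and GRCm39 were used, with roles and versions not given in the sources used here. Every value column mapped to a sample (0 unmapped), and no 2 libraries held identical values. TPM were divided by a median-of-ratios factor from the 18673 genes above 0 in all libraries (scaled TPM). A gene was tested if 4 or more of the 24 libraries reached a TPM of 1 (17823 of 78298). limma 3.58.1 in R 4.3.3, with trend and robust options, was fitted to log2(scaled TPM + 1) over all 24 libraries with 1 mean per group. Adjusted p are Benjamini-Hochberg values over all genes tested, with a threshold of 0.05, and ± after a difference is its standard error. The limma fit alone was tested on simulated data, with independent noise, known shifts and no library set apart from its group. The scaling, the motif search and the length bins were not tested in this way. Tables and plots used Python 3.11.15, pandas 2.3.3, numpy 2.4.6 and matplotlib 3.10.9. TPM give no depth, so no counting error can be stated. The labels call the samples biological replicates.

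The members and gene lists were chosen with earlier results of these data known. Named genes were the 12 largest increases and 12 largest decreases without overlap of the groups; the 4 largest changes in each list, or its 2 most abundant genes where none passed; the 5 smallest p in each direction against LPS among genes that also differed from Control; the 8 widest gaps where 1 AEAA_low library alone lay in the Control range; and 13 genes always named. Other genes of the lists were named after their values were seen. Some genes that met the rule are not reported here. Alternatives were other scalings, filters, pseudocounts, a fold threshold, library weights, a fit of 2 groups only, a replicate block and leaving out each library.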

Additional observations from a re-analysis of the deposited data

Results flagged for a closer look

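Within the AEAA_low group, 37 of 215 tested sets of values (17.2%) had 1 library separated from the other 4 by more than Dixon's 95% critical value of 0.71, and in 31 of these it was replicate 1 at the low end. In Control the same held for 8 of 167 (4.79%), with a critical value of 0.829. The AEAA_low sets held single genes and list medians, the Control sets single genes only, so these shares, and those without the 6 genes below, are of unlike sets. Chance alone would single out about 1 in 20 groups, but this is no test of replicate 1: the genes included some named because replicate 1 alone lay in the Control range, while those so named for replicates 2 to 5 were not included. Without the 6 genes named on that ground alone the counts were 32 of 209 (15.3%), 26 of them replicate 1, and 8 of 161 in Control (4.97%). Values below are the gap to the nearest library as a share of the group's range.

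With replicate 1 lowest, the chemokines gave 0.986 for Ccl3, 0.967 for Cxcl2, 0.856 for Ccl4 and 0.819 for Ccl2. Cytokines gave 0.907 for Il1rn, 0.906 for Il36g, 0.871 for Il1a, 0.863 for Csf3, 0.812 for Tnf and 0.808 for Il1b. Myeloid receptors and sensors gave 0.906 for Tarm1, 0.847 for Clec4d, 0.846 for Clec4e, 0.819 for Tnfrsf9, 0.786 for Mefv, 0.781 for Nlrp3, 0.775 for Cd14 and 0.735 for Tlr2. Acute-phase genes gave 0.832 for Orm1, 0.775 for Orm2, 0.764 for Saa3 and 0.747 for Lcn2. The others were Acod1 (0.763), Hmox1 (0.755), AA467197 (0.746), Nfil3 (0.737) and Tyms (0.712). Among list medians, replicate 1 was set apart for chemokines (0.829), for metallothioneins, zinc and iron genes (0.728), for ribosomal protein genes (0.728) and for NF-kB genes (0.716).

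Other libraries of the group were set apart less often. Replicate 5 was highest for Acta1 (0.971), Tnnt3 (0.796) and the median of the skeletal muscle list (0.905). Replicate 4 was highest for Siglec1 (0.730) and Ncr1 (0.727), and replicate 3 lowest for Bmal1 (0.711). In Control, replicate 2 was highest for Mcm5 (0.880), Oas3 (0.864), Rac2 (0.845) and Rpp21 (0.845) and lowest for Pon1 (0.855) and Hopx (0.840), replicate 3 was lowest for Ccl20 (0.843) and replicate 4 for Saa3 (0.853).

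Among the named genes, 12 differed between AEAA_low and LPS by the direct test in limma. The AEAA_low minus LPS difference was 0.72 for Rpl32, 0.61 for Rpp21, 0.54 for Sdhaf4, 0.52 for Atp5pf, 0.48 for Nenf and 0.37 for Ntan1. It was −0.57 for Cspg4, −0.50 for Shmt2, −0.41 for Zfp276, −0.36 for Pan2, −0.36 for Rgl2 and −0.34 for Maskbp3. Adjusted p for these 12 lay between 0.012 and 0.049.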

How the results depend on the processing

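Of 2395 genes higher and 2152 lower than Control, 7905 and 363 passed on the TPM as deposited, 709 and 467 with a log2 fold change of 1 or more, and 4389 and 3958 with library weights; 1312 were higher with no filter and 1546 with a pseudocount of 0.1 without filter. A fit of the 2 groups only, AEAA_low and Control, gave 3379 higher and 2852 lower. Leaving out 1 library gave 1258 to 2894 higher and 1121 to 2575 lower. Of 289 genes higher and 87 lower than LPS, 26 and 6 passed with the fold threshold, 57 and 6 with no filter, 121 and 12 with a pseudocount of 0.1 without filter, and 573 and 343 with library weights. Lower genes numbered 1672 on the TPM as deposited, 38 with upper-quartile scaling and 44 with 2 groups only. Leaving out 1 library gave 55 to 325 higher and 7 to 90 lower. At an unadjusted p under 0.05, 1486 were higher and 1340 lower than LPS.

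With the replicate number as a block, 2162 genes were higher and 1893 lower than Control, and 119 and 30 differed from LPS. Same-numbered Control and AEAA_low libraries correlated at 0.0475, −0.0214, −0.0339 and 0.0136, and same-numbered LPS and AEAA_low libraries at −0.31, −0.0839, −0.0981, −0.329 and 0.0598. These values gave no sign of a pairing by number, and the labels state none. A weak effect shared by libraries of the same number was not tested. Of 167 named genes, 9 lost and 2 gained a call under the block, and 10 of 16 T and NK cell markers passed in place of 6.

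Differences from Control changed sign in 15 cases. On the TPM as deposited these were Cldn5 (0.40), Ntan1 (0.17), Rgl2 (0.16), Pan2 (0.13), Maskbp3 (0.08), and Nenf, Atp5pf and Zfp276 (each 0.00). Cldn5 was 0.05 without AEAA_low replicate 4 and 0.03 without Control replicate 4. Without AEAA_low replicate 5 Acta1 was −0.70 and Tnnt3 −0.73. With library weights Tnnt3 was −0.08 and Xist −0.05, and Xist was −0.11 without Control replicate 1. Over all fits that left out 1 library, the range was −0.10 to 0.05 for Cldn5, −0.70 to 1.49 for Acta1, −0.73 to 0.65 for Tnnt3 and −0.11 to 0.13 for Xist. The cause was not tested. TPM carry no depth, so the smallest detectable level is unknown.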

Other observations

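Muscle transcripts from outside the airways varied between lungs. Cardiac muscle markers, which in mouse lung are known from the sleeve around the pulmonary veins, had a median difference of −1.16, and 3 of 11 were lower. The cardiac actin gene Actc1 stood at 202 to 305 scaled TPM in Control and at 117, 100.8, 93.9, 71.1 and 65.2 in AEAA_low (−1.57 ± 0.45, adjusted p = 0.018). The troponin gene Tnni3 (−1.72, adjusted p = 0.029) and the myosin gene Myh6 (−1.77, adjusted p = 0.042) were the others. Without 1 library 1 to 4 of the 11 passed, and none passed on the TPM as deposited. Skeletal muscle markers were high in 1 AEAA_low library, replicate 5, and in LPS replicates 1 and 3. In AEAA_low replicate 5 the troponin gene Tnnt3 stood at 207 scaled TPM against at most 13.5 in the other 8 AEAA_low and Control libraries (652 and 390.2 in the 2 LPS libraries) and the fast myosin gene Myh1 at 39.2 against at most 0.0614.

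Of 8 erythroid, 8 platelet and 8 adipose markers 1 each was higher, which is no more than the 13.4% of all genes and no result about these lists. Alas2, the first enzyme of haem synthesis in red cells, rose by 1.12 ± 0.35 (adjusted p = 0.025), a call lost without any of 4 libraries (AEAA_low replicates 2 and 5 and Control replicates 1 and 4; adjusted p up to 0.077). Hormone-sensitive lipase (Lipe) stood at 16.5 to 24.3 scaled TPM in Control and at 41.0, 52.2, 34.9, 52.1 and 34.9 in AEAA_low (1.08 ± 0.19, adjusted p = 0.0013), while the adipocyte hormone Adipoq differed by −0.52 ± 0.94 (adjusted p = 0.71). The integrin gene Itgb3 was the platelet marker that passed (0.73 ± 0.22, adjusted p = 0.021), and not without AEAA_low replicate 4 or Control replicate 1 or 3 (adjusted p up to 0.066). Srebf1, a regulator of lipid synthesis, fell by 0.46 (SE 0.12; adjusted p = 0.011), and the remaining cholesterol and fatty acid synthesis genes other than Scd1 and Scd2 did not pass.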
